A study of Mus musculus with 8 samples.

Results

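Sphingosine-1-phosphate (S1P) is a signalling lipid, and the genes described here are those of its 5 receptors (S1pr1, S1pr2, S1pr3, S1pr4 and S1pr5), of the enzymes that make and cleave it (Sphk1, Sphk2 and Sgpl1) and of a transporter that exports it (Spns2). They were taken by symbol from the deposited tables, and all 9 were found among 21991 genes with annotated exons, each on 1 row. Their RNA was measured in bulk in cells sorted from the bone marrow of C57BL/6 mice aged 8 to 10 weeks. The HSC fraction (hematopoietic stem cells) was sorted as CD150+ CD34- Sca1+ c-Kit+ Lineage-, and the HPC fraction (progenitor cells) as CD150+ CD34+ Sca1+ c-Kit+ Lineage-, with 4 libraries each. The source label calls all 8 libraries hematopoietic stem cells, so titles and sort markers part the fractions. No genetic change or treatment is given for either fraction. The labels do not say that libraries came from separate animals or whether animals were pooled, so p-values measure only the spread between these libraries, which may be technical.

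S1P is made inside cells when a sphingosine kinase phosphorylates sphingosine. It can be degraded at the endoplasmic reticulum by S1P lyase or returned to sphingosine by phosphatases. It can also be carried out of the cell, where it acts on G protein-coupled receptors. Blood and lymph hold much more of it than most tissues, and this gradient guides the exit of lymphocytes and of some blood progenitors from bone marrow and lymphoid organs. The receptors differ in the G proteins they engage: S1PR1 signals through Gi and promotes movement towards S1P, whereas S1PR2 also engages G12 and G13 and can restrain movement.

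The libraries held 16291733 to 19070313 exon reads in HSC and 18223082 to 20564901 in HPC. Among the sort genes, Cd34 stood at 120 ± 15.4 CPM in HSC, against 1276 ± 55.9 CPM in HPC (CPM, TMM-normalised exon reads relative to library size; SD, n = 4 each), as the gate parted the fractions on its protein. Slamf1, which encodes CD150, stood at 37.6 ± 6.02 CPM in HSC, against 3.14 ± 0.736 CPM in HPC, although both fractions were labelled CD150+. Ly6a, which encodes Sca1, stood at 131 ± 16 CPM in HSC, against 72.1 ± 8.02 CPM in HPC. Kit stood at 924 ± 185 CPM in HSC, against 746 ± 66.4 CPM in HPC. In bulk RNA, fewer cells that express a gene and less RNA per cell cannot be told apart.

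The members that changed most were the kinase Sphk1 and the receptor S1pr3, in opposite directions. Of the 8 members that passed the count filter, 3 were higher in HSC (Sphk1, S1pr1 and S1pr4), 2 were lower (S1pr3 and Sgpl1) and 3 had no call (S1pr2, Sphk2 and Spns2), at an adjusted p under 0.05 in edgeR's quasi-likelihood test with Benjamini-Hochberg adjustment over 12751 genes. Of all genes tested, 37.1% were called, 19.6% as higher and 17.6% as lower, so a count of 5 calls among 8 genes is read against a background of that size. In CPM, the libraries of 6 of these 8 members did not overlap between the fractions, as was so for 36.7% of all genes tested. The fifth receptor, S1pr5, did not pass the filter. The median log2 change (HSC over HPC) of the 8 was 0.10, against 0.00 over all genes tested.

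**Figure D1:**
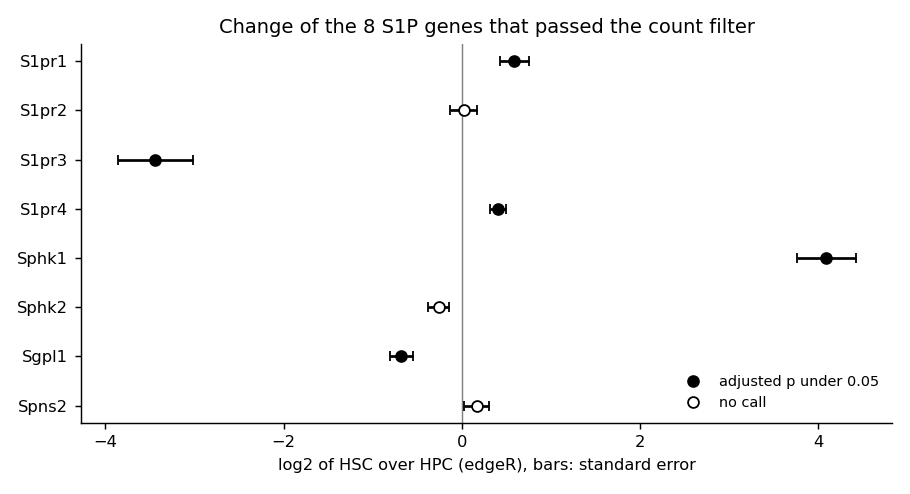
Log2 change of HSC over HPC (horizontal axis) with its standard error for the 8 genes that passed the count filter, from the edgeR fit over all genes; filled points have an adjusted p under 0.05 and open points no call. Sphk1 lies at 4.09 and S1pr3 at −3.44, and the other 6 lie between −0.68 and 0.59.

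The promoters of Sphk1 and S1pr3, the members that changed most, are shown first, each beside that of another member. Sphk2 encodes an enzyme of the same activity as Sphk1 and had no call. S1pr4 is a receptor that changed modestly and in the opposite direction to S1pr3. The windows are those of RefSeq (build GRCm38.p6) and run from 250 bases before to 50 bases after an annotated start, 5′ to 3′ on the gene's strand. Windows were found for 8 of the 9 members, all but S1pr1. Sphk1 has 5 windows, of which the first and the fourth are shown, and Sphk2 has 2, of which the first is shown. The deposited reads per gene do not say which start was used.
Capitals mark matches on either strand to 5 motifs. They are the GC box with the letters GGGCGG, the TATA box with TATAAA, a motif of GATA factors with AGATAA, the box named CCAAT after its letters, and a half-site of the cAMP response element with TGACGT. Matches to the half-site on both strands overlap within the full element.
Sphk1, chr11:116530850-116531149, plus strand: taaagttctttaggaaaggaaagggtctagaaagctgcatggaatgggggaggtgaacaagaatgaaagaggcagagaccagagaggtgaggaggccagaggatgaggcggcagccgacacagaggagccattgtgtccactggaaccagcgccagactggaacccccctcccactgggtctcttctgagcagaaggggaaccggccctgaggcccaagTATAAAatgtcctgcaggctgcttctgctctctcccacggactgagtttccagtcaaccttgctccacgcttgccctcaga
Sphk1, chr11:116532194-116532493, plus strand: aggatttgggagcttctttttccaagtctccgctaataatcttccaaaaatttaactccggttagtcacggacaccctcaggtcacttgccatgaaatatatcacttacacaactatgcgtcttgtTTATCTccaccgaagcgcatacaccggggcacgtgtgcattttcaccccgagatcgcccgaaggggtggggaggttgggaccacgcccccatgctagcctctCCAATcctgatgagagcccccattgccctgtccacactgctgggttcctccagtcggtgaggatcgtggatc
Sphk2, chr7:45717953-45718252, minus strand: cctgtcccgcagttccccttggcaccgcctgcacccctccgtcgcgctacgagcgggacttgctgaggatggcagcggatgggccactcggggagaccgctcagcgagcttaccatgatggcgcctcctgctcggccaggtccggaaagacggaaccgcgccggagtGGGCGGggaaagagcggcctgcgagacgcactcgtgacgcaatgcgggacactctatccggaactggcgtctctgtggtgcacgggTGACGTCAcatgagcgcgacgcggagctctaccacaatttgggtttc
S1pr3, chr13:51408368-51408667, plus strand: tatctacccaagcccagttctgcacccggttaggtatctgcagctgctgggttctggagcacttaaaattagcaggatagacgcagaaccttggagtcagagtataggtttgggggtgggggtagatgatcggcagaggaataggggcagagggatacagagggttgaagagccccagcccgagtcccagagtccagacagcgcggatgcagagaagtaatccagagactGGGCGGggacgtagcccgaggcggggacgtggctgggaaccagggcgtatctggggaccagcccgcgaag
S1pr4, chr10:81500088-81500387, minus strand: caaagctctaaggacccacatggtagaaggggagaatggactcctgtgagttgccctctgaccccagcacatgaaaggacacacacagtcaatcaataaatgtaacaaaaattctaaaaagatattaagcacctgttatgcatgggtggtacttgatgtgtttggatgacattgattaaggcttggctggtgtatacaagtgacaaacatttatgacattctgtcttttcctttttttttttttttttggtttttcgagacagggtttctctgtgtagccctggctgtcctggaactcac

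These windows differed in their make-up. The first Sphk1 window held a TATA box that began 31 bases before the start and had 6 CpG dinucleotides, whereas the fourth held 14 CpG, a GATA match and a CCAAT box. The first Sphk2 window held 33 CpG, a GC box and the complete cAMP response element, which began 3 bases after the start. The second Sphk2 window (chr7:45715158-45715457) held 27 CpG, 3 GC boxes, 2 CCAAT boxes and no such element. The S1pr3 window held 14 CpG and a GC box 20 bases before the start. The S1pr4 window held 1 CpG and none of the 5 motifs. Across 32851 RefSeq windows of the same length the median was 7 CpG, and 13.6% held the TATA box, 11.2% the GATA motif, 35.7% the GC box, 37.4% the CCAAT box and 7.5% the half-site. The matches describe letters in these windows and not sites of binding.

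Sphk1, the sphingosine kinase found mainly in the cytosol, was among the genes with the largest rise in HSC. Its level in TPM (reads scaled by the gene's exon length and library total) was 37.4, 35.8, 38.3 and 42.7 in the HSC libraries. In the HPC libraries it was 2.43, 4.14, 1.29 and 0.88 TPM. The exon length used for Sphk1 was 4344 bases, over 17 annotated exons, and need not be that of any single transcript. The fractions lay far apart, and replicate 2 was the highest of the HPC libraries. It rested on 6246 exon reads in HSC and 374 in HPC. The mean was 83.6 ± 11.9 CPM in HSC, against 4.86 ± 3.17 CPM in HPC (SD, n = 4 each), 17.2-fold higher (log2 4.09 ± 0.33 SE, edgeR adjusted p = 2.6e-07). Only 191 of the 12751 genes tested had a higher log2 change. Reads that cross an exon junction made up 30.5% to 38.6% of Sphk1 exon reads in HSC libraries and 35.9% to 44.6% in HPC libraries, and all of its exon reads were uniquely placed. The gene spans chr11:116530836-116536675 on the plus strand (mm10; NCBI gene 20698) with 12 annotated transcripts, and no other annotated gene overlaps it.

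Sphk2, the kinase found also in the nucleus and at mitochondria, had no call. It stood at 19.8, 20.2, 20.1 and 17.4 TPM in the HSC libraries and 27.8, 21.2, 21.2 and 18.8 TPM in the HPC libraries. HPC replicate 1 stood above the other HPC libraries. In CPM the fractions did not overlap, at 40.0 ± 1.5 in HSC and 47.8 ± 7.13 in HPC, but the log2 change of −0.26 ± 0.12 was short of a call (edgeR adjusted p = 0.12). Sphk2 (chr7:45709463-45718002, minus strand; NCBI gene 56632) overlaps the circadian factor gene Dbp on the opposite strand over 741 bases, and the model LOC108167423, which had 0 reads in every library, over 1421 bases. Without stated strand the reads of Sphk2 and Dbp cannot be told apart where they overlap, and 94.3% of Sphk2 exon reads were uniquely placed. Dbp itself had 346 to 445 exon reads in HSC libraries and 281 to 382 in HPC libraries.

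Sphk1 ranked above Sphk2 in every HSC library and below it in every HPC library. Sphk1 made up 64.0% to 71.1% of the summed TPM of both kinases in HSC libraries and 4.5% to 16.3% in HPC libraries. The summed kinase level was 57.9 ± 1.74 TPM in HSC and 24.5 ± 4.53 TPM in HPC (SD, n = 4 each). These shares and sums follow from the levels of the single genes and carry no test of their own.

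Sgpl1, the S1P lyase that cleaves S1P irreversibly, was lower in HSC. It stood at 14.8, 18.6, 22.9 and 14.0 TPM in the HSC libraries and 29.1, 25.9, 29.5 and 22.7 TPM in the HPC libraries. In TPM the highest HSC library just passed the lowest HPC library, while in CPM the fractions did not overlap. The mean was 37.2 ± 6.00 CPM in HSC, against 59.5 ± 4.24 CPM in HPC (log2 −0.68 ± 0.13 SE, edgeR adjusted p = 7.7e-04). The ratio of summed kinase TPM to Sgpl1 TPM was 2.56 to 4.29 in HSC libraries and 0.761 to 1.04 in HPC libraries, a description of RNA levels and not of enzyme activity. Sgpl1 lies at chr10:61098642-61147684 on the minus strand (NCBI gene 20397).

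Spns2, a transporter that carries S1P out of endothelial and other cells, ranked second by mean TPM in both fractions and had no call. It stood at 39.1, 51.0, 40.8 and 42.1 TPM in the HSC libraries and 31.5, 41.1, 33.0 and 41.3 TPM in the HPC libraries, and the fractions overlapped. The log2 change was 0.17 ± 0.14 (edgeR adjusted p = 0.36). Of its gene reads, 19.1% lay in introns. Spns2 lies at chr11:72451638-72489920 on the minus strand (NCBI gene 216892), and the antisense model Gm40194 within it had 0 reads in every library.

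**Figure D2:**
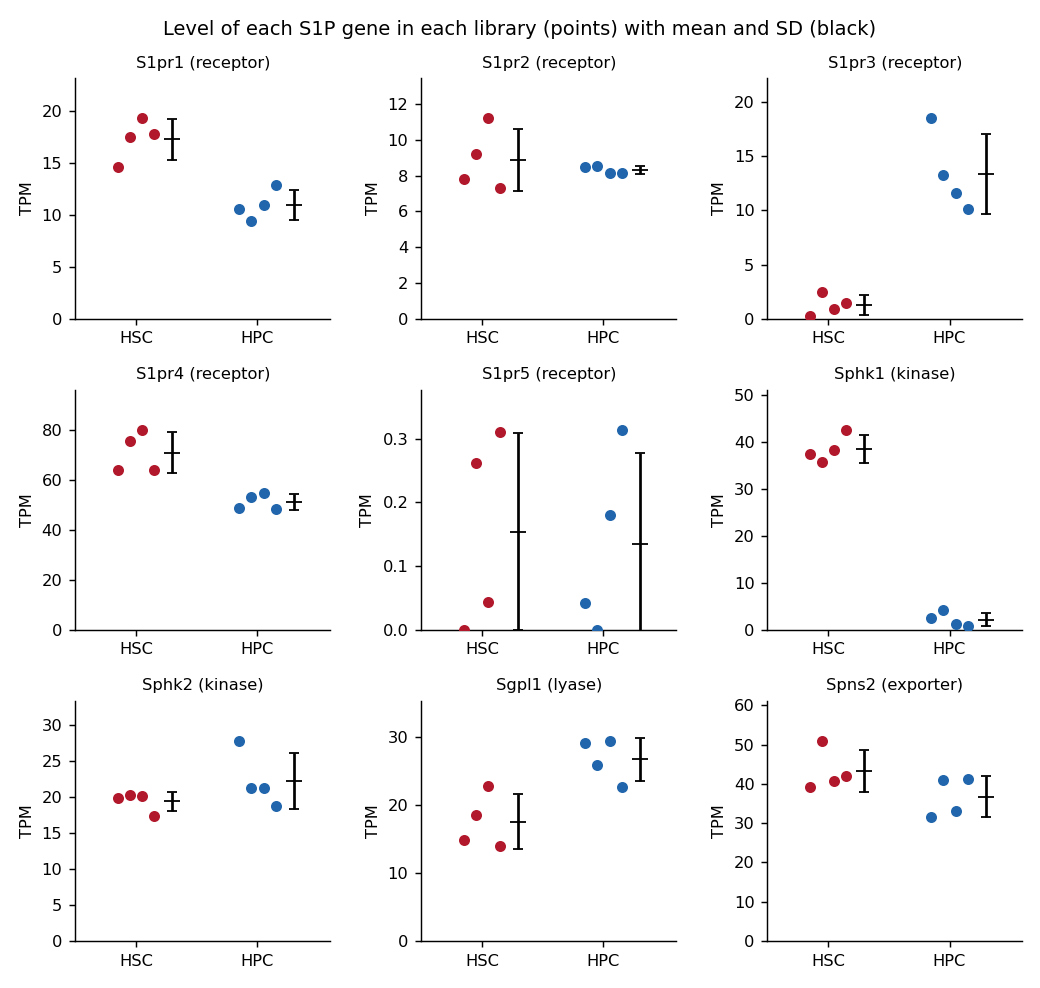
TPM of each of the 9 genes in each library (points, in order of replicate number), HSC in red at left and HPC in blue at right, with mean and SD beside them in black, each panel on its own linear axis from 0. Sphk1 and S1pr3 separate the fractions most, while the fractions overlap for S1pr2, S1pr5, Sphk2, Sgpl1 and Spns2; the S1pr5 error bars are cut at 0.

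S1pr3, a receptor that engages Gi, Gq and G12/13 and is known from endothelial, smooth muscle and myeloid cells, was much lower in HSC. It stood at 0.236, 2.44, 0.929 and 1.47 TPM in the HSC libraries and 18.5, 13.3, 11.6 and 10.1 TPM in the HPC libraries. Every HPC library lay above every HSC library, and the HSC values rested on 9, 101, 38 and 68 exon reads, a wide spread. The mean was 2.83 ± 2.06 CPM in HSC, against 30.9 ± 7.71 CPM in HPC (SD, n = 4 each), which is 10.9-fold lower (log2 −3.44 ± 0.42 SE, edgeR adjusted p = 1.5e-05). Only 99 of 12751 genes had a lower log2 change. Over the fits that left out 1 library the change ran from −3.93 (without HSC replicate 2) to −3.11 (without HSC replicate 1). S1pr3 (chr13:51408618-51422797, plus strand; NCBI gene 13610) overlaps the antisense model Gm32834 over 10069 bases. That model, which has no annotated exons, had 3 to 14 gene reads in HSC libraries and 3 to 25 in HPC libraries.

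Most tested markers of neutrophils, monocytes and mast cells were lower in HSC, as S1pr3 was. Of 8 tested, 5 were lower in HSC and none higher, where 17.6% of all genes tested were lower and 19.6% higher. The summed level of the 9 listed was 230 to 429 CPM in HSC libraries and 1869 to 2970 CPM in HPC libraries. Across HSC replicates 1 to 4, S1pr3 was at 0.537, 5.28, 1.91 and 3.59 CPM. Mpo, the most abundant marker of the list, was at 52.8, 136, 37.2 and 37.2 CPM in the same libraries. Ly6g, a marker of mature neutrophils, had 0 reads in all 8 libraries. The 3 tested markers without a call had reads in every library. Lyz2 was at 191 ± 32.9 CPM in HSC, against 262 ± 72.5 CPM in HPC. S100a8 was at 4.96 ± 1.41 CPM in HSC, against 5.86 ± 4.54 CPM in HPC. S100a9 was at 1.1 ± 0.505 CPM in HSC, against 1.73 ± 1.2 CPM in HPC. The part of such cells in the S1pr3 result was not tested.

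S1pr4, a receptor found mainly on blood cells, was the most abundant member in both fractions and was modestly higher in HSC. It stood at 63.8, 75.6, 80.0 and 63.7 TPM in the HSC libraries and 48.5, 53.0, 54.8 and 48.1 TPM in the HPC libraries, without overlap. The mean was 83.9 ± 4.77 CPM in HSC, against 63.3 ± 3.08 CPM in HPC (log2 0.41 ± 0.09 SE, edgeR adjusted p = 0.0035). Its mean TPM exceeded that of 80.8% of all genes tested in HSC and of 74.3% in HPC. S1pr4 (chr10:81497745-81500137, minus strand; NCBI gene 13611) has a single annotated exon, so no junction reads bear on it.

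S1pr1, the receptor that draws lymphocytes and progenitors towards S1P, was also higher in HSC. It stood at 14.6, 17.5, 19.3 and 17.8 TPM in the HSC libraries and 10.6, 9.42, 11.0 and 12.9 TPM in the HPC libraries. The fractions did not overlap, and HPC replicate 4 came closest to HSC. The mean was 26 ± 2.83 CPM in HSC, against 17.3 ± 3.22 CPM in HPC (log2 0.59 ± 0.16 SE, edgeR adjusted p = 0.0090). S1pr1 lies at chr3:115710433-115715055 on the minus strand (NCBI gene 13609).

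The called changes of S1pr1, S1pr4 and Sgpl1 were small. None of these 3 passed a test against a fold of 1.5 (adjusted p = 0.79 for S1pr1, 1 for S1pr4 and 0.38 for Sgpl1 by edgeR), which 16.5% of all genes passed, Sphk1 and S1pr3 among them.

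S1pr2, which can oppose movement towards S1P, had no call. It stood at 7.83, 9.23, 11.2 and 7.33 TPM in the HSC libraries and 8.50, 8.56, 8.14 and 8.14 TPM in the HPC libraries, so that the HPC values lay inside the HSC range. The log2 change was 0.02 ± 0.15 (edgeR adjusted p = 0.93), with 17.2 ± 2.12 CPM in HSC, against 17.0 ± 0.874 CPM in HPC. S1pr2 lies at chr9:20965952-20976793 on the minus strand (NCBI gene 14739).

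S1pr5, known from natural killer cells and oligodendrocytes, was near the limit of detection. It had 0, 6, 1 and 8 exon reads in the HSC libraries and 1, 0, 4 and 8 in the HPC libraries, on chr9:21242917-21248443 (minus strand; NCBI gene 94226). A count of 0 allows up to 3 reads, or 0.179 CPM in HSC replicate 1 and 0.149 CPM in HPC replicate 2, for counting error only. An exact two-sided permutation test over all 70 assignments of the libraries gave p = 0.94 on CPM, where 0.029 is the smallest p possible. No difference was detectable at this depth.

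In order of mean TPM, HSC ran S1pr4, Spns2, Sphk1, Sphk2, Sgpl1, S1pr1, S1pr2, S1pr3, S1pr5, and HPC ran S1pr4, Spns2, Sgpl1, Sphk2, S1pr3, S1pr1, S1pr2, Sphk1, S1pr5. Library ranges of neighbours overlapped in HSC for Spns2 with Sphk1, Sphk2 with Sgpl1, Sgpl1 with S1pr1 and S1pr3 with S1pr5, and in HPC for Sgpl1 with Sphk2 and S1pr3 with S1pr1. Other neighbours were apart in every library. Of the summed receptor TPM, S1pr4 took 70.3% to 73.8% in HSC libraries and 56.3% to 64.0% in HPC libraries. S1pr3 took 0.3% to 2.3% in HSC libraries and 12.8% to 21.5% in HPC libraries. The summed receptor level was 98.3 ± 11.6 TPM in HSC and 83.9 ± 3.01 TPM in HPC.

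**Figure D3:**
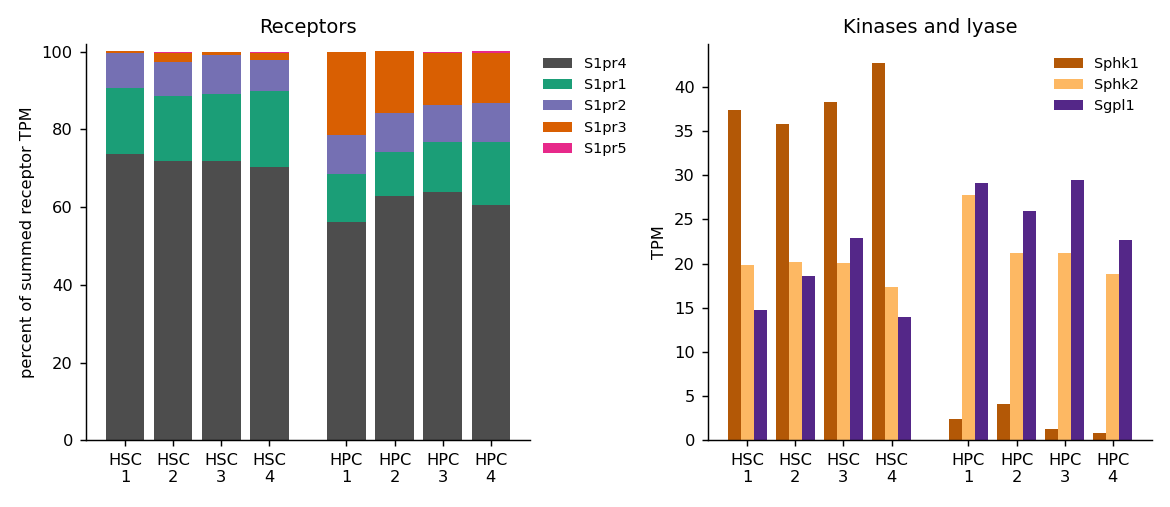
Left, share of each receptor in the summed receptor TPM of each library in percent. Right, TPM of Sphk1, Sphk2 and Sgpl1 in each library; Sphk1 is the tallest bar in the 4 HSC libraries and the shortest in the 4 HPC libraries.

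Other cells that carry S1P receptors or make S1P were looked for by their markers. The counts of markers stand beside 19.6% of all genes tested that were higher in HSC and 17.6% that were lower. The Lineage- gate of both fractions is meant to remove mature blood cells, among them T, B and red cells. T and NK cell markers were higher in HSC for 5 of 7, with a summed level of 46.6 to 65.4 CPM in HSC libraries and 16.8 to 25.1 CPM in HPC libraries, and Cd3e, the most abundant, was at 13.4 ± 2.05 CPM in HSC, against 3.82 ± 0.689 CPM in HPC. B cell markers were higher for 2 of 4, at a summed 58.9 to 76.2 CPM in HSC and 52.3 to 61.9 CPM in HPC, with Cd79b at 53.0 ± 5.64 CPM in HSC, against 54.1 ± 4.11 CPM in HPC. Red cell markers, of cells that store and release S1P, were higher for 3 of 7, at a summed 183 to 462 CPM in HSC and 40.9 to 161 CPM in HPC, with Hba-a1 at 105 ± 56.2 CPM in HSC, against 26.9 ± 21.9 CPM in HPC. Reads of Hba-a1 and its near-identical copy Hba-a2 may have been split. Megakaryocyte and platelet markers were higher for 2 of 5 and lower for 1, at a summed 164 to 240 CPM in HSC and 148 to 200 CPM in HPC. Itga2b, which was lower, was at 76.4 ± 10.3 CPM in HSC, against 93.8 ± 6.09 CPM in HPC. Of the 2 that were higher, Gp9 was at 48.3 ± 6.26 CPM in HSC, against 18.5 ± 4.25 CPM in HPC. Ppbp was at 3.87 ± 2.4 CPM in HSC, against 1.61 ± 0.536 CPM in HPC. Gp6 had 0 reads in HSC and 18 in HPC, and 0 reads in 7 of the 8 libraries. Endothelial markers were higher for 4 of 8 and lower for 2, at a summed 186 to 201 CPM in HSC and 346 to 392 CPM in HPC, most of it Egfl7 (99.4 ± 5.97 CPM in HSC, 227 ± 19.2 CPM in HPC) and Pecam1, which blood progenitors also express, while Cdh5 was at 0.922 ± 0.747 CPM in HSC, against 0.644 ± 0.456 CPM in HPC. Of the 4 endothelial markers that were higher, Kdr was at 5.15 ± 2.77 CPM in HSC, against 0.699 ± 0.23 CPM in HPC, and Cldn5 at 3.63 ± 1.62 CPM in HSC, against 0.0793 ± 0.159 CPM in HPC. The HPC value of Cldn5 rested on 6 exon reads, near the limit of detection. Emcn was at 29.4 ± 2.21 CPM in HSC, against 20.8 ± 4.08 CPM in HPC, and Plvap at 8.27 ± 1.76 CPM in HSC, against 4.93 ± 1.24 CPM in HPC. The part of these cells in the changes of Sphk1, S1pr1 and S1pr4 was not tested.

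The genes around the members came from lists. Of 10 tested genes in the list of S1P phosphatases, carriers and other exporters, 6 were higher in HSC, 0 lower and 4 had no call. The carrier gene Apom did not pass the count filter. Aldh3a2, which is in the list but of none of these kinds, had no call. Over all genes tested, 19.6% were higher and 17.6% lower. The list's median log2 change was 0.77, against 0.00 over all genes. Plpp3, a lipid phosphatase of the cell surface that degrades S1P outside cells, was at 16.0 ± 1.89 CPM in HSC, against 2.28 ± 0.319 CPM in HPC (log2 2.80 ± 0.21, edgeR adjusted p = 1.4e-07). Sgpp1, a phosphatase that returns S1P to sphingosine, was at 98.0 ± 5.75 CPM in HSC, against 52.6 ± 6.14 CPM in HPC (log2 0.90 ± 0.11). Mfsd2b, the S1P exporter of red cells and platelets, was at 64.7 ± 3.97 CPM in HSC, against 33.7 ± 4.32 CPM in HPC (log2 0.94 ± 0.12, edgeR adjusted p = 2.3e-05). Of the red cell markers given above, 3 of 7 were also higher in HSC, and the part of such cells in the Mfsd2b change was not tested. Abcg2, a drug efflux pump of stem cells, was at 123 ± 5.72 CPM in HSC, against 49.3 ± 2.88 CPM in HPC.

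Of 28 tested genes of sphingolipid synthesis and breakdown, 8 were higher in HSC, 2 lower and 18 uncalled, at a median log2 change of 0.08. Their share of calls was near the 37.1% of all genes tested. Sgms1, which makes sphingomyelin from ceramide, was at 150 ± 9.49 CPM in HSC, against 57.9 ± 1.6 CPM in HPC (log2 1.37 ± 0.09, edgeR adjusted p = 2.8e-08). Ormdl3, an inhibitor of serine palmitoyltransferase, was at 173 ± 15.5 CPM in HSC, against 74.3 ± 4.18 CPM in HPC. Cers4, a ceramide synthase, was 2.25-fold higher in HSC, and Ugcg, which makes glucosylceramide, 1.96-fold.

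Genes that carry or end the receptors' signal went both ways. Of 26 tested, 5 were higher in HSC, 6 lower and 15 uncalled, at a median of −0.09, and this share of calls too was near the 37.1% of all genes. Gnai2, the main Gi subunit of blood cells, was at 506 ± 18.6 CPM in HSC, against 620 ± 46.4 CPM in HPC (log2 −0.29 ± 0.09, edgeR adjusted p = 0.018). Among the higher ones, Gnai1, another Gi subunit, was at 3.83 ± 2.24 CPM in HSC, against 0.315 ± 0.257 CPM in HPC, and Rgs1, which shortens Gi signalling, at 74.8 ± 8.76 CPM in HSC, against 48.4 ± 5.17 CPM in HPC. The HPC value of Gnai1 rested on 24 exon reads. Among the lower ones, Arrb2, a beta-arrestin that ends receptor signalling, was at 62.9 ± 5.41 CPM in HSC, against 129 ± 11.3 CPM in HPC, and Rgs2, which shortens Gq signalling, at 16.0 ± 3.77 CPM in HSC, against 48.0 ± 3.84 CPM in HPC.

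Among 5 regulators of S1pr1, 1 was higher in HSC, 2 lower and 2 had no call (median −0.03), where 19.6% of all genes tested were higher and 17.6% lower. Cd69, whose protein binds S1PR1 and removes it from the cell surface, was at 12.5 ± 1.35 CPM in HSC, against 78.1 ± 12.9 CPM in HPC (log2 −2.64 ± 0.15, edgeR adjusted p = 6.7e-09). Foxo1, a factor that raises Klf2 and S1pr1 in T cells, was at 42.9 ± 3.97 CPM in HSC, against 22.3 ± 1.66 CPM in HPC (log2 0.94 ± 0.12). Klf2, an activator of S1pr1 in T cells, was at 21.4 ± 5.47 CPM in HSC, against 14.5 ± 3.9 CPM in HPC and had no call (edgeR adjusted p = 0.060). Ptprc, which encodes CD45, was at 176 ± 19.9 CPM in HSC, against 232 ± 25.4 CPM in HPC.

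**Figure D4:**
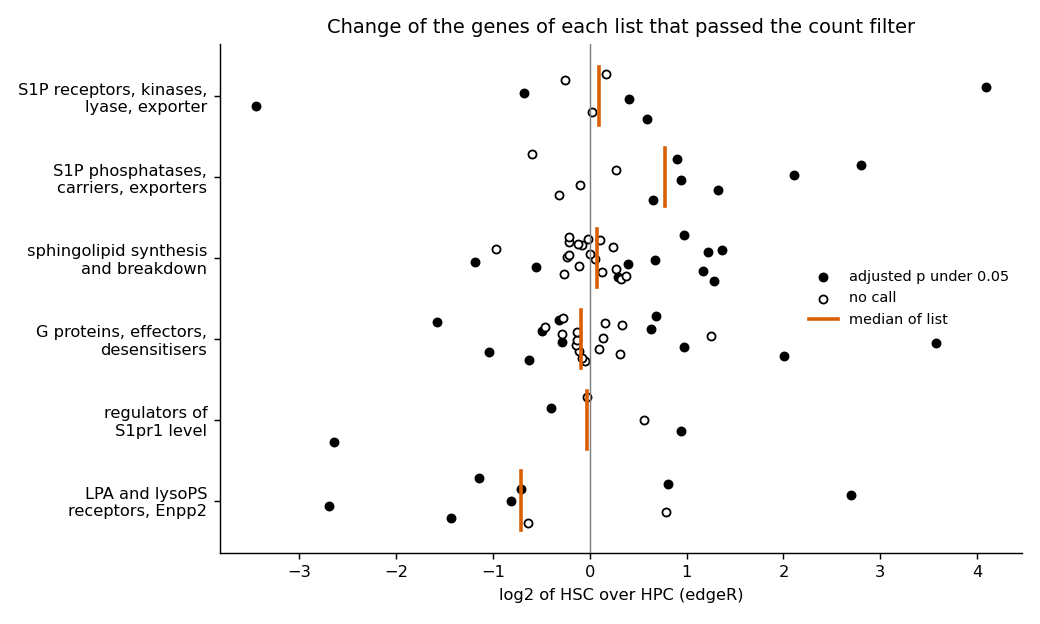
Log2 change of HSC over HPC for each gene that passed the count filter, by list, with filled points for an adjusted p under 0.05 (edgeR), open points for no call, and an orange bar at the list's median. The list of S1P phosphatases, carriers and exporters has its median at 0.77 and that of lysophosphatidic acid and lysophosphatidylserine receptors at −0.71.

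The genes most like each called member were sought among 10218 named genes averaging 5 CPM or more, by the root mean square difference of log2 CPM centred on each gene's mean over the 8 libraries. Closest to Sphk1 were Foxa3 (0.33), Rhd (0.34) and Sox18 (0.37), with Rhd at 112 ± 21.7 CPM in HSC, against 7.32 ± 2.39 CPM in HPC. Closest to S1pr3 were Drc7 (0.49), the granule protease gene Ctsg (0.53) and Cst7 (0.60), with Ctsg at 3.35 ± 2.28 CPM in HSC, against 48.5 ± 16.0 CPM in HPC. Closest to S1pr1 were Fahd1, Ginm1 and Espn (0.09 to 0.10), to S1pr4 Rfxank, Idnk and Lonp2 (0.05 to 0.06), and to Sgpl1 Ppp4r1, Wasf2 and Slc38a1 (0.07 to 0.08). Small differences are common for genes of small change, so these names describe a pattern over 8 libraries of 2 fractions only.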

How the data were processed

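RNA of 2 sorted fractions, HSC and HPC, was sequenced in 4 libraries each, and titles gave the groups. Per the labels' protocols, 5000 cells were sorted, cDNA was amplified by 18 PCR cycles with a SMARTer kit, and libraries were made with Nextera XT. Build mm10 is given in the submitters' processing notes. The sources used here name no aligner, counter or use of strand.

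Per the file headers, the authors' counts are unscaled reads in exons, introns, whole genes and exon junctions, of which total exon reads were tested. The authors' deposited TPM, with an equal sum in each library, served only to set levels of different genes side by side. The deposited RPKM and the deposited fractions of unique and intron reads, per the file headers, were not used; such shares were recomputed from reads. Rows were summed per NCBI gene ID, and PCR copies were counted as reads.

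The test was edgeR 4.0.16 (R 4.3.3), with default filterByExpr, TMM scaling, fraction alone in a quasi-likelihood F test, and Benjamini-Hochberg adjustment over 12751 genes. An SE is the absolute log2 change over the root of F, and folds are ratios of mean CPM. The procedure was tested on simulated data. Scaling, filter, reads counted, replicate block, DESeq2 1.42.0, voom of limma 3.58.1, a tested fold of 1.5 and leaving out libraries were tried as alternatives. Members, the 13 lists (140 of 142 entries matched) and tests were chosen with earlier results of these data known. All members were named, with up to 4 called genes per pathway list by smallest adjusted p and an average of 5 CPM or more, plus Mfsd2b, Sgpp1, Klf2, Cd69 and Gnai2, the sort genes, the most abundant marker per cell type, and the 3 genes most alike per called member. Some genes that this rule names are given by counts only. Dbp, Ly6g, Lyz2, S100a8, S100a9, Gp6, Gp9, Ppbp, Cdh5, Kdr, Cldn5, Emcn, Plvap, Pecam1, Gnai1, Rgs1, Apom, Aldh3a2 and the lowly expressed receptors of lysophospholipids were added after their values were seen. No pair of libraries of a fraction looked like 1 library deposited again (mean chi-square per gene of 11.6 to 38.7).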

Additional observations from a re-analysis of the deposited data

Results flagged for a closer look

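In groups of 4 libraries, a value was picked out when its gap to the nearest other library was most of the group's range (Dixon's 95% limit), which chance does in about 1 of 20 groups. Of 108 groups checked, 5 were picked out. S1pr4 in HPC replicate 1 was at 58.7 CPM, below 64.4 to 65.1 CPM in the other HPC libraries. Sphk2 in HPC replicate 1 was at 58.5 CPM, above 43.7 to 45.0 CPM in the others; without that library its log2 change was −0.16 (edgeR adjusted p = 0.34, with a range of 0.091 to 0.34 over 19 alternatives and 1 in the test against a fold of 1.5). Cers4 in HPC replicate 2 was at 69.3 CPM, above 53.4 to 54.3 CPM. Gnai2 in HPC replicate 4 was at 689 CPM, above 594 to 599 CPM. Mpo in HSC replicate 2 was at 136 CPM, above 37.2 to 52.8 CPM.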

How the results depend on the processing

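In 19 of 20 alternatives all 5 called members kept their call and direction. The exception was the test against a fold of 1.5, which left 1 member higher and 1 lower in HSC, with no call for S1pr1 (0.59), S1pr4 (0.41) and Sgpl1 (−0.68), since it asks for a larger change. Over the fits that left out 1 library, log2 changes ran from 3.84 to 4.6 for Sphk1, −3.93 to −3.11 for S1pr3, 0.51 to 0.72 for S1pr1, 0.36 to 0.44 for S1pr4, −0.77 to −0.62 for Sgpl1, −0.31 to −0.16 for Sphk2 and 0.08 to 0.27 for Spns2. S1pr2 ran from −0.05 (without HSC replicate 3) to 0.07 and was −0.02 without HPC replicate 3. The S1pr5 difference (HSC minus HPC) ran from −0.0593 to 0.104 CPM. S1pr5 was at −0.0234, −0.0593, −0.0275 and −0.0433 CPM without HSC replicate 2, HSC replicate 4, HPC replicate 1 and HPC replicate 2. S1pr2 and S1pr5, neither called, were the members that changed sign, and the cause was not tested. The labels do not say what same-numbered libraries shared beyond the number. Their deviations correlated at −0.12 to 0.15, and 4 of 8 libraries correlated best with their own number. Of all pairs across the fractions, those numbered 4 (0.15) and 3 (0.09) correlated highest. Such weak correlations cannot show whether same-numbered libraries shared an animal or a batch. With the replicate number as a block, 2588 genes were higher and 2448 lower in HSC, against 2493 and 2240 without it, and the members' calls were the same 3 higher and 2 lower, with Sphk1 at 4.22 and S1pr3 at −3.56. Upper quartile scaling gave 2929 higher and 1820 lower. Depth limits S1pr5, and S1pr3 in HSC rests on 216 reads.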

Other observations

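Receptors of related lysophospholipids also differed between the fractions. Of 9 tested genes for lysophosphatidic acid and lysophosphatidylserine receptors and the enzyme Enpp2, 2 were higher in HSC, 5 lower and 2 uncalled. Over all genes tested, 19.6% were higher and 17.6% lower. The median log2 change of these genes was −0.71, against 0.00 over all genes. Lpar6, the most abundant, was at 136 ± 6.81 CPM in HSC, against 77.3 ± 6.27 CPM in HPC (log2 0.81 ± 0.09, edgeR adjusted p = 8.1e-06). Lpar5 was at 20.5 ± 2.82 CPM in HSC, against 33.5 ± 3.05 CPM in HPC, and Lpar2 at 14.9 ± 3.23 CPM in HSC, against 26.1 ± 2.56 CPM in HPC. Among the lowly expressed ones, Lpar1 was at 0.768 ± 0.555 CPM in HSC, against 5.02 ± 0.658 CPM in HPC, and Lpar4 at 3.39 ± 1.15 CPM in HSC, against 0.524 ± 0.603 CPM in HPC. The HPC value of Lpar4 rested on 38 exon reads. Lpar3 had 0 reads in all 8 libraries.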
